A study of Drosophila melanogaster with 4 samples.

Results

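Chromosome arm 2L is the left arm of the second chromosome of Drosophila melanogaster, a large autosome arm that runs from a telomere to the gene-poor, repeat-rich chromatin next to the centromere. The regions described here are the H3K27ac enrichment clusters of 2L outside that last stretch, that is, clusters that start before the last 2 Mb at the centromere end of the arm sequence (FlyBase release 5, per the file headers). A cluster of replicate 1 was a member when it shared at least 1 bp with a cluster of replicate 2. This gave 896 members, out of 5423 such clusters over the whole genome and out of 975 clusters of replicate 1 on the stretch. Of these, 91.9% (95% Wilson interval 90.02 to 93.5) were thus members, which equals the 91.9% of replicate 1 clusters found in both replicates over the whole genome.

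The libraries came from nuclei of heads of wild-type Oregon-R flies of mixed adult age, raised in population cages. They comprised 2 ChIP libraries, made with an H3K27ac antibody from Active Motif, and 2 input libraries, which the labels pair by number with the ChIP libraries as their background. All groups share strain, genotype and stage, so no condition was varied, and the comparison made here is between chromosome arms within the same libraries. The labels leave unsaid if each replicate had its own collection of flies, and their spread may be technical. Values with ± are the mean and SD over the 2 ChIP replicates. No p-value was computed for differences between arms, since 2 replicates cannot give a two-sided exact p below 0.5.

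Acetylation of lysine 27 of histone H3 is laid down in flies by the acetyltransferase CBP, the product of nejire, and marks nucleosomes at active promoters and enhancers. The same lysine carries trimethylation in Polycomb-silenced chromatin, so a histone tail cannot bear both marks. Heads hold neurons, glia, photoreceptors, muscle, cuticle-forming cells and fat body. A cluster from whole heads therefore does not tell strong acetylation in few cells from weak acetylation in many. Clusters are given by position with no gene named at them, because an annotation of their build was not used here, and for the same reason the head label was not checked against marker genes.

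The file headers give no read depth and no score formula. The score of a cluster is the authors' value. Arms were compared on it within each list. Members were ranked by its mean over the 2 replicate lists, and score changes were taken between these lists. Its values are on a log2 scale, so that a score higher by 1 stands for a ratio 2 times as large. On the stretch of 2L the scores ran from 0.18 to 2.27 in replicate 1 and from 0.15 to 2.18 in replicate 2. No cluster of 2L was narrower than 1310 bp in replicate 1 or 1311 bp in replicate 2. Shorter acetylated sites, if called at all, were not listed on their own for either replicate. The authors' replicate-set list, made for the replicates together, went down to 1001 bp on 2L.

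Clusters covered 4.43 Mb of the 21.0 Mb stretch in replicate 1 and 4.48 Mb in replicate 2, or 21.1% and 21.3%. There were 975 clusters in replicate 1 and 1029 in replicate 2, at 46.4 and 49.0 per Mb. A typical cluster was about the size of a promoter and its flanks, with a median width of 3046 bp in replicate 1 and 2918 bp in replicate 2. The middle 50% of widths lay between 2054.5 and 5381 bp in replicate 1 and between 2011 and 5007 bp in replicate 2. Clusters of at least 10 kb numbered 83 (8.51%) and 79 (7.68%), against 9.07% and 8.77% of all clusters in the whole lists. These long clusters held 28.3% and 27.4% of the covered bases of 2L.

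Cluster coverage was unevenly spread along 2L. Cut at its midpoint, the stretch had 25.14% of its telomere side under clusters in replicate 1 and 24.98% in replicate 2, against 17.0% and 17.7% of its centromere side. The difference was 7.69 ± 0.58 percentage points, and the replicates did not overlap. The clusters themselves differed less. Median widths were 3046 and 3048 bp on the telomere side and 3044 and 2793 bp on the centromere side. Median scores were 0.81 and 0.76 against 0.82 and 0.72. Neither difference exceeded the spread between replicates, at 128.5 ± 179 bp and 0.02 ± 0.03. The sides differed instead in how many clusters they held, with 54.4 and 55.97 per Mb on the telomere side and 38.4 and 42.0 per Mb on the centromere side. The median gap from a cluster to the next was 4335 and 4500 bp on the telomere side, and 6585.5 and 6250.5 bp on the centromere side. Coverage did not fall steadily toward the centromere. Cut into 4 equal parts from the telomere, the stretch was covered to 23.3% ± 0.09, 26.8% ± 0.13, 16.3% ± 0.37 and 18.4% ± 0.58. The last full window of 500 kb, 20500001 to 21000000, was covered to 28.6% ± 1.59.

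The midpoint cut on the other arms gave smaller differences. For a like comparison, the 2 Mb at the centromere end were left out of 3L and 3R as well. On 3L the telomere side was covered to 25.8% ± 0.23 and the centromere side to 20.8% ± 0.18, a difference of 5.08 ± 0.05 percentage points. On 3R the values were 22.3% ± 0.15 and 21.9% ± 0.11, a difference of 0.40 ± 0.26. The difference on 2L exceeded that of 3R by 7.29 ± 0.84 percentage points and that of 3L by 2.61 ± 0.63. The comparison with 3L depended on the centromere end: with whole arms it was -0.18 ± 0.86, positive in replicate 1 (0.43) and negative in replicate 2 (-0.79). The midpoint cut was chosen after the values were seen.

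**Figure D1:**
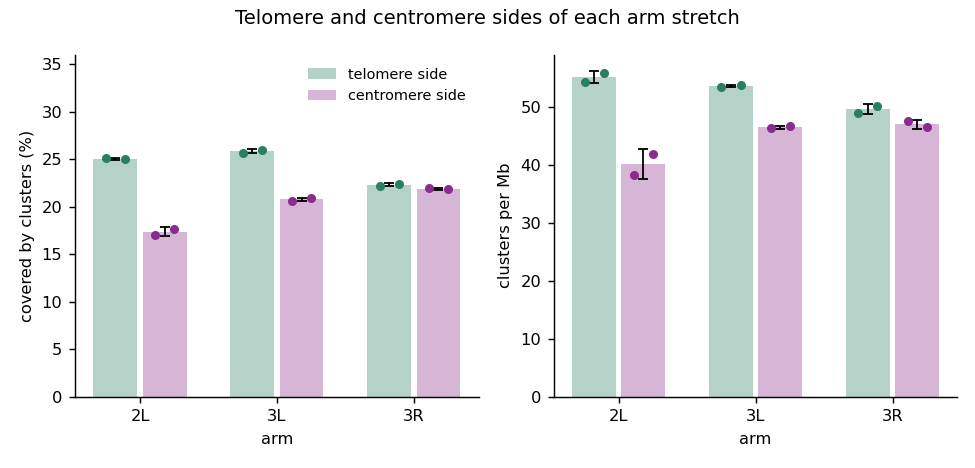
Covered share (%) and clusters per Mb on the telomere and centromere side of the stretches of 2L, 3L and 3R outside the 2 Mb at the centromere end; points are the 2 replicates, bars their mean, and error bars the SD. On 2L the centromere side was covered to 17.0% and 17.7%, the lowest of the 6 sides in both replicates, and its telomere side to 25.14% and 24.98%, close to that of 3L.

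In 42 full windows of 500 kb, coverage of 2L ran from 6.28% to 39.8% in replicate 1 and from 8.14% to 39.4% in replicate 2. The densest window was the first, at the telomere end, with 39.6% ± 0.27 under clusters from 1 to 500000. It was followed by 9500001 to 10000000 with 39.2% ± 0.17, slightly lower than the first in both replicates. Next came 8000001 to 8500000 (34.9% ± 1.80), 7500001 to 8000000 (32.3% ± 0.23) and 13000001 to 13500000 (30.4% ± 0.68). Thus 3 of the 5 densest windows lay between 7.5 and 10 Mb. The dense windows were of more than 1 make-up. The window at the telomere end held strong clusters, with a median score of 1.00 and 1.04 over 34 clusters in each replicate. The window from 13000001 held 33 clusters in each replicate with a median score of only 0.71 and 0.70, below the arm's 0.81 and 0.74.

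Placing the 500 kb window in steps of 10 kb moved the densest stretch to 7930001 to 8430000, with 44.1% and 41.9% under clusters. The fixed grid had split this stretch between neighbouring windows. In windows of 100 kb the top was 65.4% ± 3.26, from 9200001 to 9300000. It was followed by 62.5% ± 1.90 from 100001 to 200000, where clusters of 21.4 kb and 27.3 kb in replicate 1 lay within the same window.

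By mean coverage, the 5 sparsest windows all lay on the centromere side. The lowest 5 were 14500001 to 15000000 (7.21% ± 1.32), 17000001 to 17500000 (9.66% ± 0.14), 15500001 to 16000000 (9.88% ± 1.43), 15000001 to 15500000 (10.25% ± 0.62) and 11000001 to 11500000 (11.7% ± 0.26). The place of 15500001 to 16000000 among these changed between replicates. The last of them was not stable either. In replicate 1 the window 5500001 to 6000000, on the telomere side, was slightly sparser than 11000001 to 11500000, at 11.89% against 11.92%. In replicate 2 it was denser, at 13.07% against 11.56%. Together, 14.5 to 16 Mb formed a run of 3 adjacent sparse windows. With the window moved in steps of 10 kb the lowest coverage was 3.15% and 3.08%, from 15720001 to 16220000, where 5 clusters began in replicate 1 and 6 in replicate 2.

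Clusters in the 5 lowest windows were fewer and also smaller than in the 5 highest. They stood at 28.0 and 30.8 per Mb, against 66.4 and 68.0 per Mb. Their median width was 2568.5 and 2186 bp, against 3095.5 and 3127 bp, and their median score was 0.70 and 0.64, against 0.87 and 0.78. The window from 15500001 stood apart among the sparse ones, with few clusters but a median score of 0.93 and 0.90, above that of the arm. Each replicate had 1 cluster of at least 10 kb in the sparse windows and 23 or 20 in the dense ones. Since the windows were ranked by coverage, these values describe them and are no test. The replicates shared 88.6% and 81.8% of their clusters in the sparse windows, and 91.6% and 94.7% in the dense ones.

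**Figure D2:**
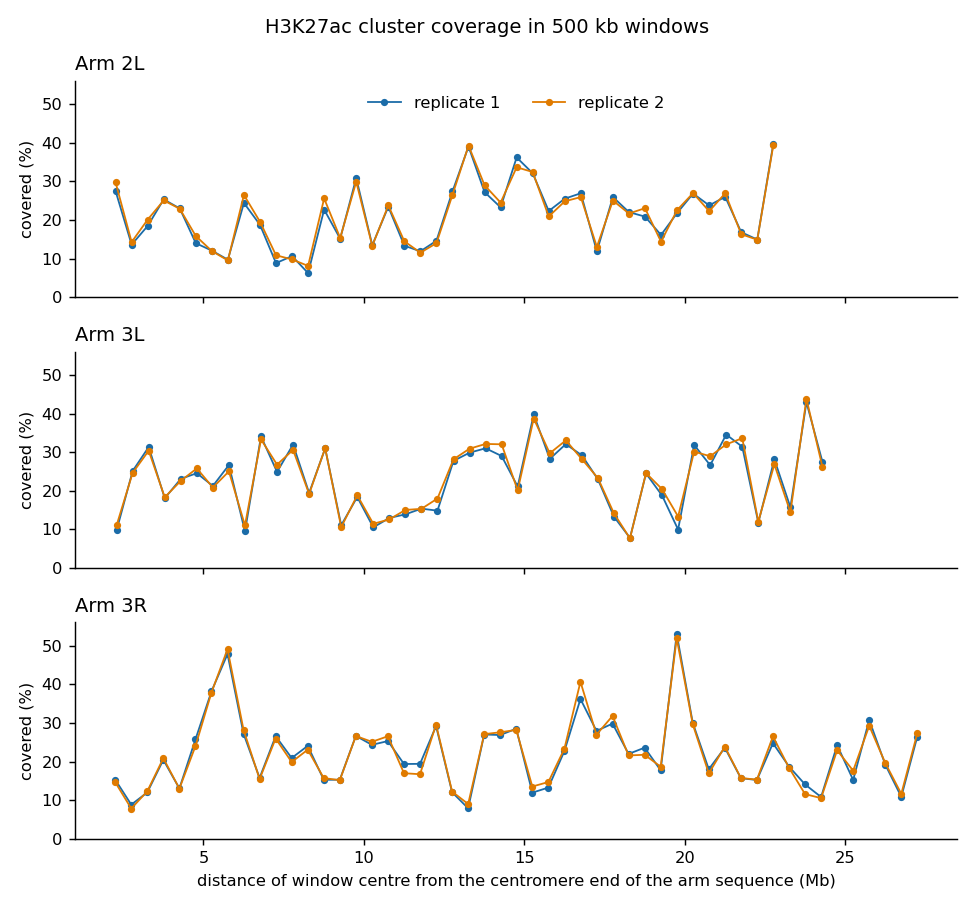
Share of each full 500 kb window under clusters (%) against the distance of the window centre from the centromere end of the arm sequence (Mb), for 2L, 3L and 3R; the lines are replicate 1 and replicate 2. On 2L both lines are low at the 3 adjacent windows from 14.5 to 16 Mb of the arm, where the lowest had 6.28% and 8.14%, and higher on either side of them, and no window of 2L reached 40%.

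The longest stretches without a cluster in either replicate lay mostly in the same part of the arm. They ran from 17140154 to 17376182 (236 kb), 11281447 to 11515360 (234 kb), 14744208 to 14970642 (226 kb), 15275749 to 15489763 (214 kb) and 1362748 to 1574524 (212 kb). The fifth, near the telomere, was the exception to the centromere side. None was empty in the replicate-set list, the authors' further list for the replicates together: it placed 1 to 3 clusters in each, adding up to 1970 to 6376 bp. These stretches thus held few calls at the authors' thresholds, and were not bare of them. The read signal within them was not examined.

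Spacing on 2L combined close neighbours with long gaps. The median gap was 5231 and 5085.5 bp, shorter than on 3R (5654 and 5729 bp) in both replicates. On 3L it was 5348 and 5504 bp, again longer in both replicates, but the difference of 2L minus 3L was -117 bp in replicate 1 and -418.5 bp in replicate 2 and changed sign once clusters within 500 bp were merged. At the other extreme, gaps of at least 100 kb numbered 35 and 34 on 2L, against 31 and 29 on the longer 3L and 34 and 29 on 3R. The longest single gap was on 3R, at 405 kb in each replicate. On 2L it was 252 and 281 kb, and on 3L 251 and 208 kb. Gaps of at least 50 kb took up 40.7% and 37.8% of the stretch of 2L, 37.4% and 34.8% of 3L, and 37.0% and 36.3% of 3R. The long gaps of 2L were unevenly placed, with 32 and 30 gaps of at least 50 kb on the telomere side and 50 and 47 on the centromere side. On 3R both sides held 51 in replicate 1 and 52 in replicate 2.

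Windows of 100 kb showed the same pattern. Of 210 such windows on 2L, 20 held no cluster base in replicate 1 and 15 in replicate 2, and 14 were empty in both. Of these 14, 10 lay on the centromere side. Windows with under 5% covered made up 19.0% ± 1.35 on 2L, 15.6% ± 0.63 on 3L and 16.8% ± 1.37 on 3R, and 2L had the highest share in each replicate. At the dense end, windows with at least 40% covered made up 11.4% ± 0.67 on 2L, less than on 3L (19.1% ± 0.63) and on 3R (14.1% ± 0.27) in both replicates. Windows with 20% to 40% were more frequent on 2L, at 39.5% ± 0.67 against 32.7% ± 0.94 and 34.4% ± 0.55.

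**Figure D3:**
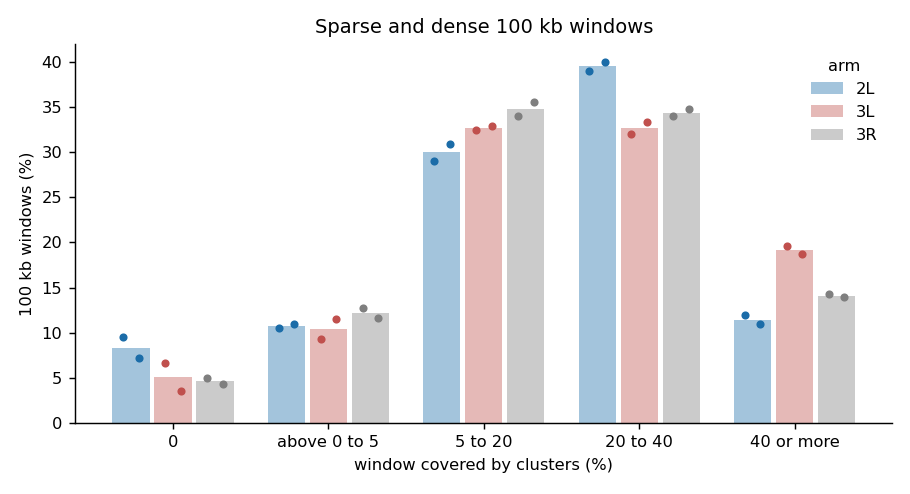
Share of full 100 kb windows (%) by the percentage of the window under clusters, for 2L, 3L and 3R outside the 2 Mb at the centromere end; points are the 2 replicates and bars their mean. For 2L, windows with at least 40% covered made up 11.4%, against 19.1% on 3L and 14.1% on 3R, and windows with 20% to 40% made up 39.5%.

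Over the whole stretch 2L had the lowest covered share of the 3 arms. It stood at 21.2% ± 0.18, against 23.3% ± 0.21 on 3L and 22.1% ± 0.02 on 3R. Within replicates 2L lay below 3L by 2.07 and 2.10 percentage points and below 3R by 1.00 and 0.77. Density was lower than on 3L in both replicates (46.4 against 49.9 per Mb in replicate 1, 49.0 against 50.3 in replicate 2). Against 3R it was lower in replicate 1 (48.3 on 3R) and higher in replicate 2 (48.4). Median widths did not separate the arms: 2L minus 3L was 40 bp in replicate 1 and -47 bp in replicate 2, and 2L minus 3R was 60.5 and -54 bp.

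Mean width, which follows the long clusters, was lower on 2L in both replicates, at 4544 and 4358 bp against 4635 and 4665 bp on 3L and 4570 and 4568 bp on 3R. The long clusters differed to match. Those of at least 10 kb held 27.8% ± 0.70 of the covered bases on 2L, 31.9% ± 0.43 on 3L and 31.6% ± 1.08 on 3R. In the replicate-set list these shares were 35.8%, 37.8% and 35.7%. There 2L lay below 3L but not below 3R.

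Median scores of 2L were close to those of the other arms, and fewer of its clusters reached the highest 10% of scores. Median scores were 0.81 and 0.74 on 2L, 0.82 and 0.76 on 3L, and 0.79 and 0.76 on 3R. Of the clusters of 2L, 72 (7.38%, 95% Wilson interval 5.91 to 9.20) in replicate 1 and 68 (6.61%, 5.25 to 8.29) in replicate 2 were among the highest 10% of scores of the whole list. On 3L the shares were 8.26% and 7.33%, and on 3R they were 8.23% and 7.81%. The intervals of the arms overlap, although 2L was lowest in each replicate. Among the 100 highest scores of the whole list, the stretch of 2L held 5 in replicate 1 and 9 in replicate 2, while holding 16.5% and 16.99% of all clusters. That of 3L held 9 and 8, with 19.1% and 18.7% of all clusters, and so was also below its share. That of 3R held 20 and 17, with 21.2% and 20.7% of all clusters. The top score itself was higher on 2L than on 3L in both replicates, by 0.10 and 0.06, and lower than on 3R.

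The strongest member of 2L ran from 2747200 to 2760567 (positions shared by both replicates, as for all members below). It scored 2.27 in replicate 1 and 2.14 in replicate 2, at widths of 13.6 and 13.4 kb. The second, 6074549 to 6093207, scored 2.12 and 2.18 and was 18.7 and 19.0 kb wide. Their order turned between replicates, so which of them leads the arm is not resolved. Next in both was 16266260 to 16288269, with 2.06 and 2.08. These 3, out of 896, were the members that scored above 2 in both replicates, against 2 of 1027 matched clusters on 3L and 7 of 1144 on 3R. In the whole lists their ranks were 7 and 20, 17 and 16, and 26 and 30.

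The fourth, 11803059 to 11810290, scored 1.96 and 1.98 and stood directly at the end of a cluster-free stretch of 174 kb. The fifth, 157461 to 184116, scored 1.90 and 1.95. Of the other strong members, 10847812 to 10851653 scored 1.83 and 1.93 and 10332636 to 10336871 scored 1.84 and 1.88. These last members were narrow for their score, at 4.10 and 3.84 kb and at 4.25 and 4.37 kb. The list of 10 was completed by 16704113 to 16723510 (1.84 and 1.91), 477035 to 488273 (1.84 and 1.87) and 68996 to 75816 (1.79 and 1.90). The order among the members with mean scores from 1.85 to 1.88 changed between replicates. The next member just outside the list, 18453818 to 18466568, scored 1.81 and 1.84, above the tenth in replicate 1 and below it in replicate 2.

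The first 500 kb of the arm held 3 of the 10 strongest members. Of all clusters on the stretch, 34 of 975 began there in replicate 1 and 34 of 1029 in replicate 2. Another 3 of the 10 lay between 10332636 and 11810290, a span picked after their positions were seen. Whether strong members were grouped more than other clusters was not tested. Of the latter, 10332636 to 10336871 lay in a window covered to 26.98% ± 0.63, while the others lay in sparser ones, from 10500001 and 11500001, covered to 14.3% ± 0.44 and 13.9% ± 0.81. All 10 were found as 1 cluster of the replicate-set list, where the first 4 kept their order.

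The widest acetylated domain of 2L began near 12.46 Mb. Replicate 2 and the replicate-set list held it as 1 cluster, of 57209 bp from 12455481 to 12512689 in replicate 2 and of 57937 bp in the replicate-set list. Replicate 1 held it in pieces of 13573 and 41690 bp, with an interruption of under 1 kb between 12469442 and 12470270. Both pieces therefore appear among the 10 members of largest mean width, matched to the same partner. Its score was modest for its width, at 1.45 and 1.27 for the pieces and 1.36 for the whole. A further wide member, 12525050 to 12547487 (22.5 and 22.5 kb, scores 1.59 and 1.51), lay next to it, with 1 narrower cluster between. With 13040596 to 13060970 (22.3 and 20.4 kb), this neighbourhood held 4 of the 10 widest entries.

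The other wide members were 157461 to 184116 (27.3 and 26.7 kb), 9684275 to 9708857 (24.9 and 25.03 kb), 8081337 to 8102966 (25.9 and 22.3 kb), 16266260 to 16288269 (23.7 and 23.2 kb), 17556679 to 17579930 (23.4 and 23.5 kb) and 1646903 to 1668997 (22.6 and 22.1 kb). Only 157461 to 184116 and 16266260 to 16288269 were also among the 10 strongest. The member from 1646903 had the lowest mean score of the list, 1.18 ± 0.03. The member from 17556679, at 1.27 ± 0.08, lay in a window that was covered to only 12.05% ± 0.07. Wide domains thus occurred in sparse surroundings as well as in dense ones.

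**Figure D4:**
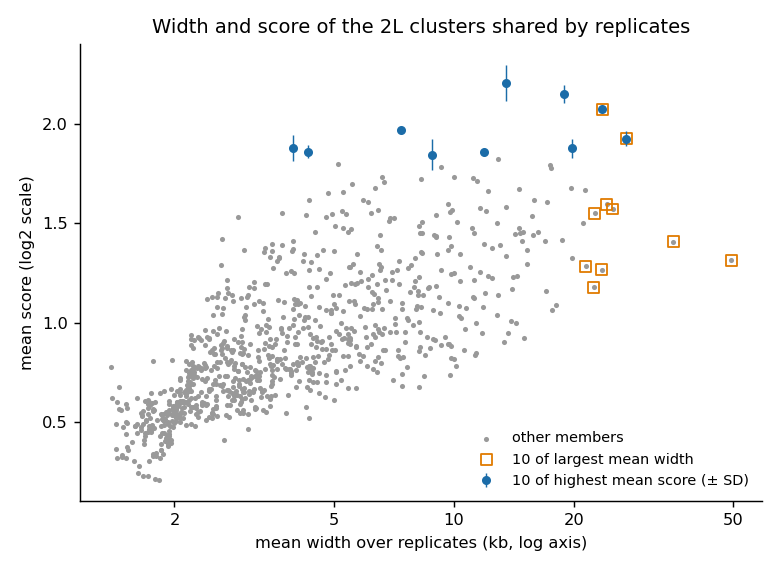
Mean score (log2 scale) against mean width (kb, log axis) over both replicates for the 896 members; blue points with error bars (SD) are the 10 of highest mean score and orange squares the 10 of largest mean width. Wider members scored higher, and 2 members were in both lists; the member of largest mean width, 49.4 kb, had a mean score of 1.31.

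Width and score rose together on 2L, with a Spearman's rho of 0.81 in replicate 1 and 0.82 in replicate 2 across clusters, which are not independent of their neighbours. The 573 members under 5 kb in both replicates had a median mean score of 0.70, and 8 of them exceeded 1.5. The 65 members of at least 10 kb in both had a median of 1.44, and 25 exceeded 1.5. No member of at least 10 kb in both replicates had a mean score under 0.92. By contrast, the score of a cluster said little about its neighbour, with a rho between successive clusters of 0.07 in each replicate. The rho of the score with the distance to the nearest neighbour was also weak, at -0.06 and -0.05. The most isolated clusters nevertheless had lower median scores, as given below.

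Many clusters of 2L stood in short chains, with gaps under 2 kb. Such chains held 461 (47.3%) of the clusters in replicate 1 and 495 (48.1%) in replicate 2, against 47.7% and 46.8% on 3L and 45.2% and 44.7% on 3R. Replicate 2 minus replicate 1 on the same arm was of a size similar to the differences between 2L and 3L. By mean length over the replicates, the longest chain with several clusters in both ran from 9657276 to 9709142 in replicate 1 and covered 51.9 kb with 4 clusters in each replicate, of which 93.8% and 97.1% was under clusters. The replicate-set list drew it as 1 cluster of 52089 bp. Next came 2854572 to 2911836 in replicate 1, with 7 clusters over 57.3 kb, which made it the longer in that replicate, and 3 clusters over 29.8 kb in replicate 2. The chains from 16249633 (38.6 and 40.0 kb), from 8684766 (39.2 and 34.5 kb) and from 7501530 (34.0 and 34.4 kb) followed.

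A few members stood far from all others. The member 1360997 to 1362444 lay 103 kb from the nearest cluster of either replicate on one side and 212 kb on the other. It was 1.75 and 1.48 kb wide and scored 0.48 and 0.41, low on the arm. Next in isolation was 12815290 to 12823404, with 91.9 and 150 kb of free sequence around it. It was not small, at 8.15 and 8.33 kb and scores of 0.94 and 0.82. The third, 16167715 to 16169534, had 166 and 53.9 kb around it and scored 0.44 and 0.42. Clusters with at least 20 kb on both sides numbered 53 and 61 and had a median score of 0.70 and 0.66, against 0.81 and 0.74 for the arm. In replicate 2, 77.0% of them were shared with replicate 1, against 90.9% of clusters with a neighbour within 1 kb. In replicate 1 the shares were 92.5% and 92.1%, so this contrast was not seen in both replicates.

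The replicates placed cluster borders of 2L closely. Of the 896 members, 758 (84.6%) were matched 1 to 1. Among these, starts lay a median of 119 bp apart and ends 131.5 bp, and 64.2% of starts and 60.4% of ends lay within 200 bp. Covered bases had a Jaccard index (bases in both over bases in either) of 82.0%. Scores of members had a rho of 0.88 between replicates, as described across clusters with no test. Replicate 2 scored lower at 555 members (61.9%), with a median change of -0.04; the same held on 3L (62.2%) and on 3R (58.0%).

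The remaining members were split or joined between replicates. There were 61 members that overlapped more than 1 cluster of replicate 2, and 42 clusters of replicate 2 that overlapped more than 1 of replicate 1. The extreme case was a cluster of replicate 2 of 17351 bp from 4415701 to 4433051, which replicate 1 held as 4 clusters of 2189 to 5346 bp. Their scores were 0.85, 0.88, 0.64 and 0.73, and that of the joined cluster was 0.84. The largest rises in score were at joined clusters. The member 14027674 to 14030064 scored 0.78 in replicate 1 and was absorbed in replicate 2 into a cluster of 10.5 kb that scored 1.47, whose other part had scored 1.62 in replicate 1. At 20874235 to 20876147 the score went from 0.55 to 1.29 in the same way, since replicate 2 joined it to the left part of a neighbour of 15.9 kb.

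Among members matched 1 to 1 the change in score from replicate 1 to replicate 2 lay between -0.27 and 0.16 for the middle 90%, and 28 (3.69%) changed by more than 0.3 either way. All of the 5 largest changes were falls. The first and second were both near the second strongest member of the arm. The member 6044047 to 6049597 scored 1.51 in replicate 1 and 0.91 in replicate 2, and 6098022 to 6100343 scored 1.13 and 0.60. The strong member between them, from 6074549, scored 2.12 and 2.18. Over the 90 kb from 6.04 to 6.13 Mb, replicate 1 held 3 further clusters that replicate 2 lacked, from 6050036 (score 0.59), 6065328 (0.61) and 6124106 (0.79). This neighbourhood was picked after its values were seen. The other large falls were at 18442103 to 18443989 (0.78 to 0.29), at 11812371 to 11814703 (1.09 to 0.61), which lay just beyond the fourth strongest member, and at 10736728 to 10738586 (0.84 to 0.37). The strong member beside the second of these kept its score, at 1.96 and 1.98.

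**Figure D5:**
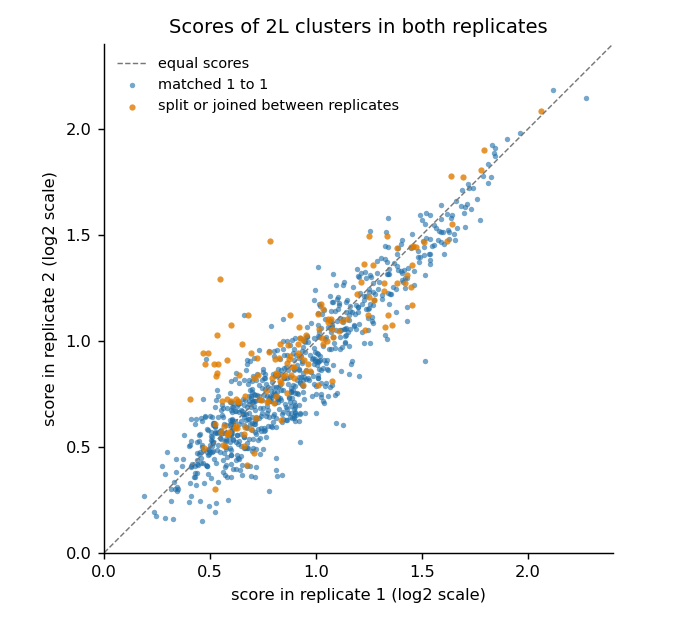
Score in replicate 2 against score in replicate 1 (both log2 scale) for the 896 members; blue points were matched 1 to 1, orange points were split or joined between replicates, and the dashed line marks equal scores. Most points lie close to the line, with 61.9% below it, and the points farthest above it, such as 0.55 against 1.29, belong to joined clusters.

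Clusters found in 1 replicate alone numbered 79 (8.10%) in replicate 1 and 112 (10.9%) in replicate 2. They were narrow, with a median of 1638 and 1599.5 bp and none above 3529 and 3726 bp. Their median score was 0.51 and 0.54, against 0.85 and 0.79 for shared clusters, and 82.3% and 76.8% fell within the lowest 25% of scores of the whole list. By width, 69.0% and 64.8% of clusters under 2 kb were shared, 97.1% and 95.6% of those from 2 to 5 kb, and all of the 277 and 258 wider ones. The share found in both replicates was 89.1% (95% Wilson interval 87.1 to 90.9) for replicate 2 on 2L, against 90.4% over the whole genome.

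Of the 3 highest-scoring of these in each replicate, most came from 1 place. In replicate 2 the first 3 were 15677057 to 15678381 (score 1.32), 15704605 to 15706258 (1.10) and 15668764 to 15670362 (0.91). In replicate 1 the first was 15670845 to 15672248 (1.01), which began just beyond the end of 15668764 to 15670362. The others of replicate 1 were 4038374 to 4039730 (0.82) and 6124106 to 6126305 (0.79), the latter in the neighbourhood of differing scores described above. From 15655387 to 15719011, replicate 1 held 6 clusters and replicate 2 held 9, of which 1 and 4 were alone, and the replicate-set list held 12. Its clusters overlapped each of the 6 named clusters. This sequence lies within the sparse run from 14.5 to 16 Mb, and its 12 clusters in the replicate-set list were 1434 to 7774 bp wide. Why the calls differed there was not tested.

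The replicate-set list held 1175 clusters on the stretch. Clusters of both replicates were overlapped by 813 of them (69.2%, 95% Wilson interval 66.5 to 71.8), which held 88.6% of the covered bases of the list. Another 198 (16.9%, 14.8 to 19.1) overlapped neither, at a median width of 1308 bp and a median score of 0.37. All 896 members overlapped this list. Its covered share was 26.0% on 2L, against 28.5% on 3L and 26.6% on 3R, so 2L was lowest here too. It is a single list made for the same replicates, so its values have no spread between replicates and are not independent of the replicate lists. At the boundary of the stretch, the last member inside started at 20994593 in replicate 1 (score 0.73), and the first cluster outside started at 21031989 (score 0.78).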

How the data were processed

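ChIP-seq for H3K27ac and input sequencing were done on nuclei from adult heads, and the authors' 3 cluster lists (positions and scores) were used here. Per the submitters' processing notes, Bowtie 0.12.7 was the aligner. The caller, its thresholds and the making of the replicate-set list were not given in the sources used here. The score of each cluster was deposited by the authors without a formula and read as log2: relative to 1 score per list (the commonest, or in the replicate set the highest), 2 raised to the difference was a ratio of whole numbers (denominators up to 20000, relative tolerance 1e-12) for 100% of replicate 1 clusters, 99.97% of replicate 2 and 91.9% of the replicate set, against under 1% with bases e and 10. Depth is unknown, and its part in the number and width of clusters was not tested. Wilson intervals cover counting error only.

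Clusters were cut at the stretch boundary for covered share. Gaps run from the end of a cluster to the start of the next in the same list. The partner of a member was the replicate 2 cluster with the largest overlap. Differences between arms were taken within each replicate and called where both had the same sign. Members and lists were chosen with earlier results of these data known. Regions were named by rule: the 10 strongest and 10 widest members, 3 clusters found in 1 replicate alone per replicate, the 5 densest and 5 sparsest windows, the 5 longest cluster-free stretches, the 3 most isolated members, the 5 longest chains, and the 5 largest changes of score and of width. Others were picked after their values were seen. No sequence is shown, because a genome of release 5 was not used here. The functions for overlap, coverage, gaps and merging were tested on simulated clusters. Alternatives covered the overlap, the clusters and list used, merging, the centromere end, 10 kb windows and leaving out a replicate. Scripts ran under Python 3.11.15 with pandas 2.3.3, numpy 2.4.6, matplotlib 3.10.9 and scipy 1.17.1.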

Additional observations from a re-analysis of the deposited data

How the results depend on the processing

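Of the comparisons between arms, the covered share of 2L below 3L and 3R and the surplus of its telomere side kept their sign under every alternative run. With clusters scoring at least the median of their list, 14.5% of 2L was covered, 2L lay at -2.20 percentage points to 3L, the telomere side exceeded the centromere side by 5.74 points, which was 1.31 more than on 3L and 5.70 more than on 3R, and 377 members remained (84.0% of replicate 1 clusters). Fewer clusters enter these. With whole arms the covered share was 20.2%, the differences to 3L and 3R were -1.65 and -2.35, the surplus of the telomere side was -0.18 relative to 3L (reversed), and the median gap differed from 3R by -154 bp. Leaving out 3 Mb gave -2.42 to 3L, -1.31 to 3R, and 3.62 for the surplus relative to 3L. Clusters shared by both replicates gave 20.4% covered, -2.04 to 3L and a median gap of -31.8 bp relative to 3L. The replicate-set list gave 26.0% covered, -2.48 to 3L, -0.55 to 3R, a surplus of 8.75, median widths of -123 bp to 3L and -145 bp to 3R, and a median score 0.0167 above 3L (reversed). Merging clusters within 500 bp (highest score kept) gave a median gap 9.0 bp above 3L (reversed), -692.5 bp to 3R, and a median width 127 bp above 3R. The share of 10 kb windows with any cluster was 47.3% on 2L, -3.97 to 3L and -1.99 to 3R, since a window counts whole. Overlap at 50% of both clusters gave 84.6% of clusters shared, and matching replicate 2 to replicate 1 gave 89.1%. Where no cause is given, it was not tested.

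Leaving out 1 replicate gave 21.1% to 21.3% covered, -2.10 to -2.07 to 3L, -1.002 to -0.77 to 3R, and surpluses of 7.28 to 8.10, of 2.16 to 3.05 relative to 3L and of 6.70 to 7.89 relative to 3R. Median widths differed by -47 to 40 bp from 3L and -54 to 60.5 bp from 3R, median scores by -0.02 to -0.01 and -0.02 to 0.02, and median gaps by -418.5 to -117 and -643.5 to -423 bp. Members need both replicates, so no such value exists for them. The densest and sparsest 500 kb had 43.0% and 3.12% with the window moved in 10 kb steps. Alternatives for the sides of the arm and for the moved window were added after the data were seen. No paired analysis was possible because the results come from no test and no groups of libraries were compared: inputs carry the same replicate numbers but reached these values only by way of the deposited calls. Differences between arms were taken within each replicate.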
